A study of Bos taurus with 28 samples.

Results

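The miR-30 family was followed through the miRNA cargo of extracellular vesicles (EVs) from raw cow milk. Its members were every miRNA of the table named miR-30 with a letter from a to f, with or without an arm suffix. This rule found 6 of the 132 miRNAs, bta-miR-30a-5p, bta-miR-30b-5p, bta-miR-30c, bta-miR-30d, bta-miR-30e-5p and bta-miR-30f, written below without the species prefix, and it used no measured value. EVs were isolated from skimmed milk of 4 healthy dairy cows, milked in the morning and in the evening over consecutive days, and small RNA was sequenced in 28 libraries. Of these, 14 were morning and 14 evening libraries, with 6 from Cow 1, 8 from Cow 2, 6 from Cow 3 and 8 from Cow 4. The cows had a negative California Mastitis Test before inclusion, and breed, age and any treatment are not given in the sources used here. The somatic cell count (SCC), which rises when the udder is inflamed, was known for each milking and is given here per µL of milk. Each cow and day gave 1 morning and 1 evening library. A cow's libraries therefore come from repeated milkings of the same animal, and a p-value for 2 cows is set against the variation from milking to milking only.

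The miR-30 family is an old vertebrate miRNA family whose mature 5p strands share the same seed, the stretch near the 5′ end that pairs with target messages. Its members therefore have largely overlapping predicted targets. In mammalian epithelia the family is best known for holding back the epithelial to mesenchymal transition, and in the mouse mammary gland a forced excess of miR-30b was reported to impair lactation. miR-30a, miR-30d and miR-30e differ from each other by very few bases, as do miR-30b and miR-30c. How the counting assigned reads with errors between such close sequences was not tested. The mature sequences were not printed, because none of the files used here held them.

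All 6 members matched a bovine gene in the RefSeq annotation of assembly ARS-UCD2.0, which served for names and neighbours only because the files name no genome build. The genes stand in 3 pairs. MIR30B and MIR30D are direct neighbours, with 0 other genes starting between them. MIR30C and MIR30E are direct neighbours as well, and both lie within the span of NFYC, a protein-coding gene for a subunit of the transcription factor NF-Y. MIR30A and MIR30F are each other's nearest miRNA genes, with the start of 1 gene model, LOC132346186, between them. MIR30A lies within the span of that model.

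Levels are given as log2 CPM, the base-2 logarithm of the reads relative to the size of the library after the authors' scaling, so that a step of 1 is a doubling. The recovered reads on the 132 miRNAs ran from 101968 to 325211 per library, with a median of 158620, and 71 of 3696 values stood at a count of 0, none of them a member's. Of the epithelial markers (the miR-200 group, miR-375 and miR-148a) 7 of 7 were measured, and they summed to between 101361 and 162023 CPM in every library. Of the immune, red blood cell and stromal markers, 5 of 6, 3 of 6 and 3 of 4 were measured, while miR-223, miR-451, miR-486, miR-144 and miR-145 were not among the 132. The immune markers summed to 3352 to 7643 CPM in Cow 3 and to 1385 to 2938 CPM in the other cows. No pair of libraries of a cow was alike within counting noise.

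The family made up a median of 5.72% of the reads on the 132 miRNAs. The lowest share was 3.99% in Cow 1 on the morning of day 3 (95% Wilson interval 3.88 to 4.09) and the highest 9.19% in Cow 4 on the morning of day 1 (9.06 to 9.33). These intervals cover counting error only, since the libraries were amplified. The mean share and its SD were 4.76% ± 0.93 for the 6 libraries of Cow 1 and 6.05% ± 1.18 for the 8 of Cow 2. They were 6.92% ± 1.11 for the 6 libraries of Cow 3 and 5.96% ± 1.57 for the 8 of Cow 4. The ranges of the 4 cows overlapped. Morning libraries had 5.96% ± 1.33 and evening libraries 5.91% ± 1.48 (SD, n = 14 each), a difference far below the spread.

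Within the family, miR-30a-5p and miR-30d carried most of the reads. miR-30a-5p, which in human cancer cells lowers the autophagy protein Beclin 1, took 55.1% of all miR-30 reads and ranked between 4 and 12 of the 132 miRNAs in single libraries. miR-30d, found in human endometrial fluid and taken up by embryos, took 29.8% and ranked between 12 and 16. miR-30f followed with 8.35% and ranks from 21 to 38. The remaining members were minor. miR-30e-5p took 3.18%, miR-30c, which in mice lowers lipoprotein assembly, 2.68%, and miR-30b-5p 0.865%. The order miR-30a-5p, miR-30d, miR-30f held in 28 of 28 libraries, and so did the place of miR-30b-5p below miR-30c. miR-30e-5p and miR-30c were neighbours whose order was not fixed, since miR-30e-5p was the higher in 22 of 28 libraries.

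The counts behind these levels were high for 5 of the 6 members. In single libraries miR-30a-5p had 2605 to 12486 reads, miR-30d 1427 to 7491, miR-30f 379 to 2095, miR-30e-5p 155 to 777 and miR-30c 105 to 636. miR-30b-5p had 23 to 270 reads. The expected SD from counting alone was 0.19 on the log2 scale for miR-30b-5p and at most 0.095 for the other members.

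**Figure D1:**
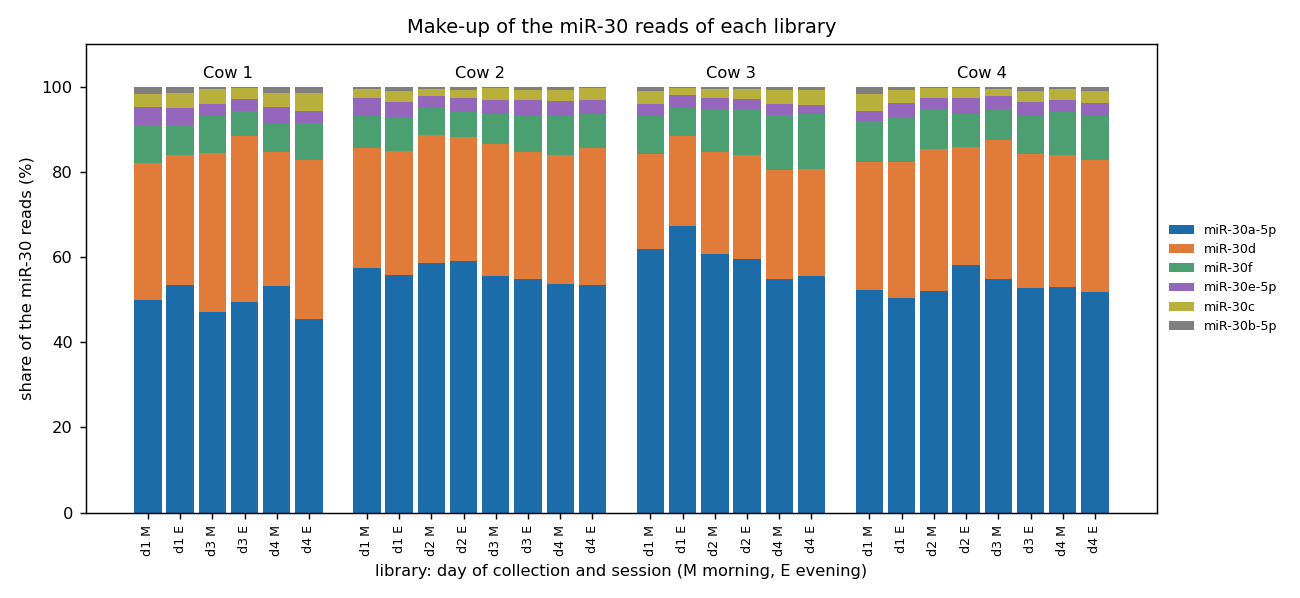
Share of the miR-30 reads (percent) taken by each of the 6 members in each of the 28 libraries, grouped by cow and ordered by day and session. miR-30a-5p takes 45.4% to 67.2% and miR-30d 21.3% to 38.9%, with the miR-30d segment of every Cow 3 library at or below 25.7%.

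The make-up of the family differed between the cows. In Cow 3, miR-30a-5p took 59.9% ± 4.6 and miR-30d 23.8% ± 1.7 of the family's reads (SD, 6 libraries). In Cow 1 the same members took 49.7% ± 3.2 and 34.6% ± 3.6 (6 libraries). Cow 2 and Cow 4 stood between, with miR-30d at 30.0% ± 1.2 and 31.2% ± 1.7 (8 libraries each). In Cow 3 the miR-30d share reached at most 25.7% of the family, below the lowest value of every other cow (27.8% in Cow 4).

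The first comparison asked which members differed among the cows. On the deposited log2 CPM scale miR-30f separated the cows most. In Cow 1 its lowest, median and highest values were 11.75, 11.93 and 12.07, and in Cow 2 they were 11.81, 12.07 and 12.29. In Cow 3 they were 12.25, 12.61 and 12.77, and in Cow 4 12.18, 12.52 and 12.80. All libraries of Cow 1 lay below all libraries of Cow 3 and Cow 4, while those of Cow 1 and Cow 2 overlapped. The limma F test among cows gave miR-30f an F of 16.6 and an adjusted p of 1.45e-05.

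miR-30a-5p was lowest in Cow 1, with values from 14.31 to 14.91 and a median of 14.60. Its medians were 14.98 in Cow 2 (14.81 to 15.17), 15.11 in Cow 3 (14.78 to 15.65) and 15.08 in Cow 4 (14.81 to 15.25). All 4 ranges overlapped, and the shift of Cow 1 was one of the mean. The limma F was 6.38 with an adjusted p of 0.00686, and the call was lost with the mean of both sessions as 1 value per cow and day (adjusted p = 0.0784) and within each session.

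miR-30d had the opposite low cow. Its lowest, median and highest values were 13.69, 13.80 and 13.99 in Cow 3 and 14.02, 14.30 and 14.46 in Cow 4, so that these cows did not overlap. Cow 1 (13.84, 14.09 and 14.44) and Cow 2 (13.91, 14.09 and 14.22) lay between them. The limma F was 6.38 with an adjusted p of 0.00686. This call was lost with the means per cow and day (adjusted p = 0.109), within each session, with quantile normalization (0.0582) and with scaling by read totals (0.691).

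The 3 minor members did not pass this test. miR-30e-5p, a miRNA that in human breast tumour cells represses the SUMO enzyme UBC9, had cow means from 10.67 in Cow 3 to 10.99 in Cow 2 (limma adjusted p = 0.206). miR-30c had medians from 10.43 in Cow 2 to 10.79 in Cow 1 (adjusted p = 0.307). miR-30b-5p had medians from 8.60 in Cow 3 to 9.45 in Cow 1, with ranges of more than 1 log2 unit in every cow (adjusted p = 0.452). In all, 3 of 6 members were called among cows, beside 47.0% of the 132 miRNAs, so the share of the family was that of the table. The median F was 4.22 over the members and 2.95 over all miRNAs.

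**Figure D2:**
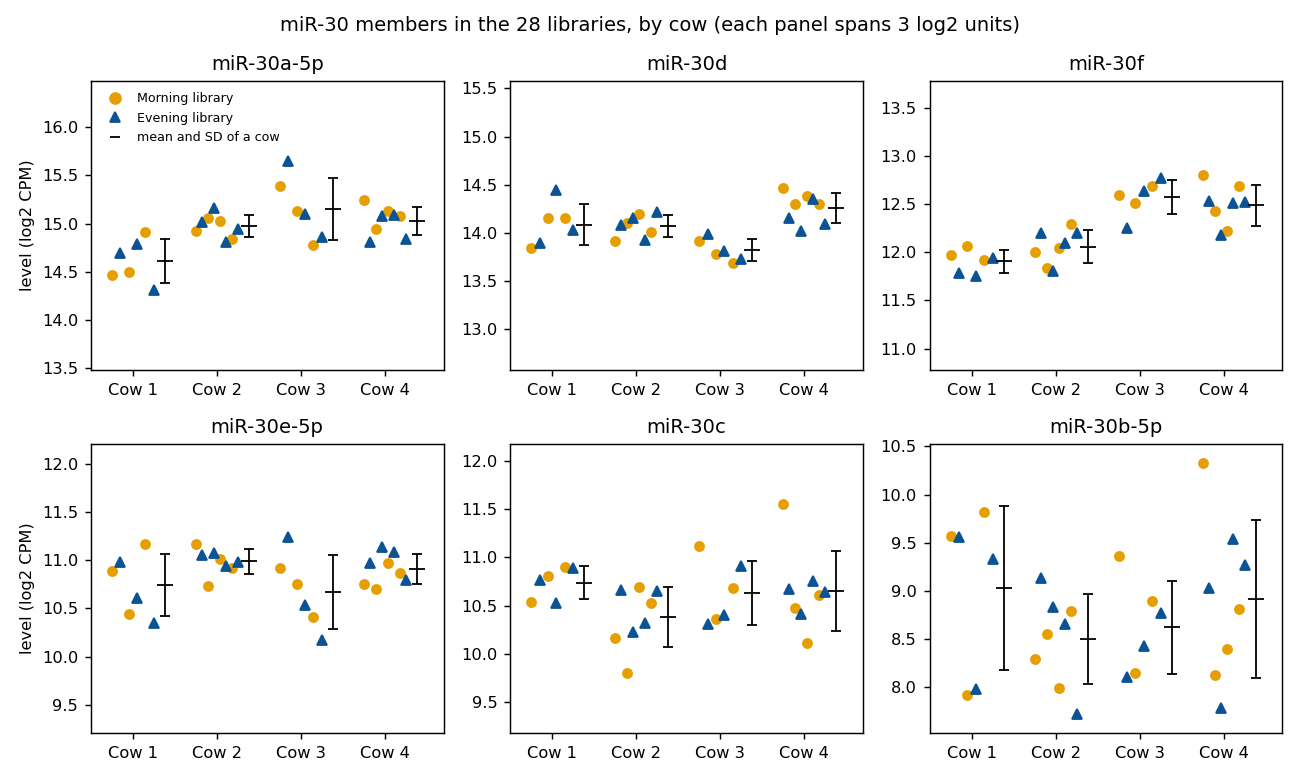
Level of each member (log2 CPM) in each library, with morning libraries as circles, evening libraries as triangles and the mean and SD of each cow in black. Libraries of a cow run from left to right by day. miR-30f is lowest in Cow 1 and miR-30d lowest in Cow 3, while miR-30b-5p spreads by more than 1 log2 unit in every cow.

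The contrasts of single pairs of cows, which share each cow's libraries, gave 7 calls among 36 tests of a member. miR-30f was higher in Cow 3 than in Cow 1 (log2 difference 0.67, standard error 0.12, limma adjusted p = 6.40e-05) and than in Cow 2 (0.51, 0.11, adjusted p = 4.79e-04). It was also higher in Cow 4 than in Cow 1 (0.58, 0.11, adjusted p = 2.70e-04) and than in Cow 2 (0.43, 0.10, adjusted p = 0.00247). Between Cow 4 and Cow 2 the call was lost with the means per cow and day (adjusted p = 0.0501).

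miR-30a-5p was higher in Cow 3 than in Cow 1 (0.54, standard error 0.13, limma adjusted p = 0.00285) and in Cow 4 than in Cow 1 (0.41, 0.12, adjusted p = 0.0358). The second of these calls was fragile. It was lost without any 1 of 8 single libraries, with an adjusted p of up to 0.139, and with each cow and day as a replicate block (adjusted p = 0.119). miR-30d was higher in Cow 4 than in Cow 3 (0.44, 0.10, adjusted p = 0.00142). miR-30d in Cow 3 was 0.27 below Cow 1 (adjusted p = 0.0677) and 0.26 below Cow 2 (adjusted p = 0.0517), neither of which passed.

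By pair of cows, 0 members were called between Cow 2 and Cow 1, beside 9.85% of all miRNAs. Between Cow 3 and Cow 1, 2 members were called beside 22.7%, and between Cow 4 and Cow 1, 2 members beside 5.30%. Cow 3 and Cow 2 differed in 1 member beside 30.3%, Cow 4 and Cow 2 in 1 beside 18.9%, and Cow 4 and Cow 3 in 1 beside 25.8%. With counts of 0 to 2 out of 6, none of these shares was read as a property of the family.

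The levels of single members also depended on how the libraries were scaled. The scaling factors behind the deposited values were worked back together with the reads. These inferred factors ran from 0.979 to 1.35 in Cow 3 and from 0.696 to 1.23 in Cow 4. When the recovered reads were divided by the plain read totals, the median difference of all miRNAs between Cow 4 and Cow 3 moved by -0.25 on the log2 scale. The difference of miR-30d between Cow 4 and Cow 3 then shrank to 0.15 (limma adjusted p = 0.520), and that of miR-30f between Cow 4 and Cow 2 to 0.26 (adjusted p = 0.299). miR-30f between Cow 4 and Cow 1 kept a difference of 0.57 but lost its call (adjusted p = 0.0585). Under that scaling 3 of the 7 calls passed, those of miR-30a-5p and miR-30f between Cow 3 and Cow 1 and of miR-30f between Cow 3 and Cow 2. All 7 differences kept their direction under the 3 other scalings tried (equal library medians, quantile normalization and read totals). Immune markers were high in Cow 3, as given above. The red blood cell and stromal markers also had their highest medians in Cow 3 (1462 and 6820 CPM), with ranges that overlapped those of other cows. The part of any of these markers in the differences was not tested.

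A ratio of 2 members within a library does not depend on that scaling, and the balance between members was compared in this way. The log2 ratio of miR-30a-5p to miR-30d was above 0 in all 28 libraries. Its lowest, median and highest values were 0.28, 0.49 and 0.80 in Cow 1 and 0.73, 0.91 and 1.02 in Cow 2. They were 1.09, 1.32 and 1.66 in Cow 3 and 0.64, 0.75 and 1.06 in Cow 4.

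Every library of Cow 3 lay above every library of the other 3 cows. As a fold, miR-30a-5p stood on average 2.52 times above miR-30d in Cow 3, 1.87 times in Cow 2, 1.70 times in Cow 4 and 1.44 times in Cow 1. By exact two-sided permutation tests, adjusted over 90 tests, Cow 3 differed from Cow 1 by 0.81 on the log2 scale (adjusted p = 0.0139), from Cow 2 by 0.43 (adjusted p = 0.00999) and from Cow 4 by 0.56 (adjusted p = 0.00999). Cow 2 stood above Cow 1 by 0.38 (adjusted p = 0.0139 in the same exact test).

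**Figure D3:**
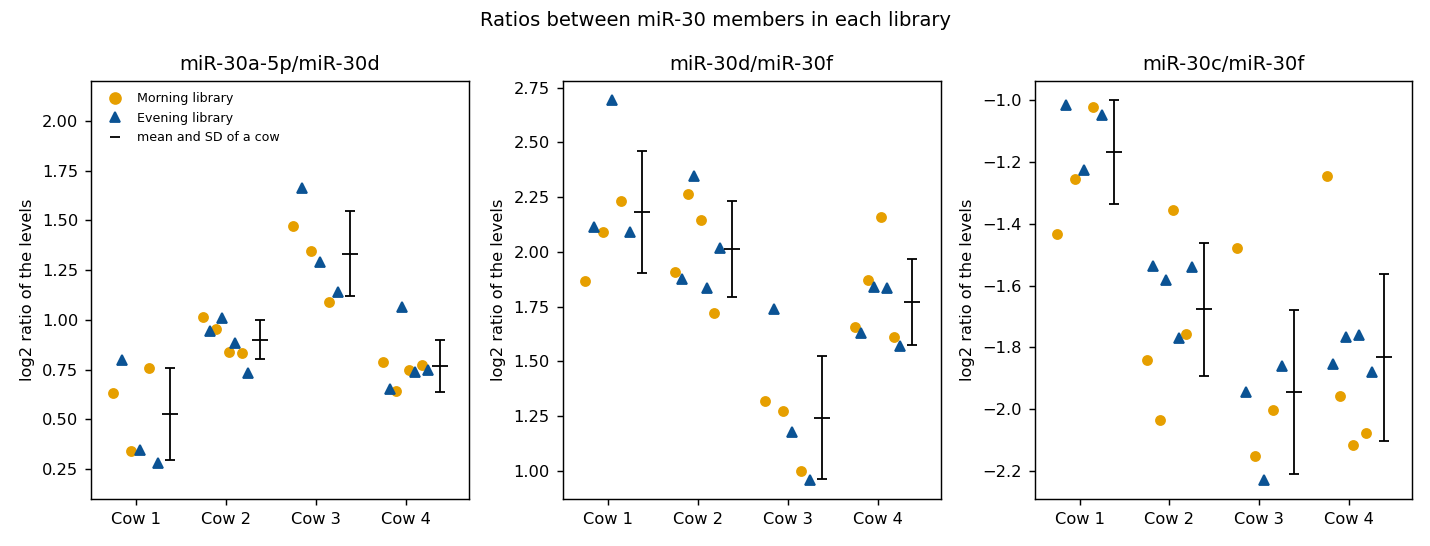
Log2 ratio of the levels of 2 members in each library, by cow, with circles for morning, triangles for evening and the mean and SD of each cow in black. For miR-30a-5p to miR-30d every Cow 3 library lies at or above 1.09 and every other library at or below 1.06, and for miR-30d to miR-30f Cow 3 has the lowest mean.

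Over 15 ratios of members and 6 pairs of cows, 18 of 90 exact permutation tests passed after adjustment. An unadjusted p below 0.05 was reached by 32 of the 90 (35.6%), beside 31.3% of the same tests over the ratios of all pairs of the 132 miRNAs. The libraries of the cows did not overlap in 8 of the 90 (8.89%), beside 7.80% over all pairs. The balance within the family thus differed between cows about as often as that of any miRNAs in the table. The smallest p such a test can give is 0.00216 for 6 against 6 libraries, 0.000333 for 6 against 8 and 0.000155 for 8 against 8. Of the 18, 17 were kept whichever single library was left out. The exception, miR-30d to miR-30f between Cow 4 and Cow 1, was lost in 8 of 28 omissions. Omitting a library of a cow outside the pair leaves the p of a test unchanged and can act only through the adjustment.

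miR-30f took part in 9 of the 18 calls, miR-30a-5p and miR-30d in 8 each, miR-30e-5p in 6 and miR-30c in 5. miR-30b-5p took part in 0 of its 30 tests. Its ratios had the widest spread within cows, from 0.57 to 0.72 on the log2 scale, against 0.17 for miR-30a-5p to miR-30d.

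The log2 ratio of miR-30d to miR-30f was lowest in Cow 3, at 0.96, 1.23 and 1.74 for the lowest, median and highest library. The same values were 1.87, 2.10 and 2.69 in Cow 1, 1.72, 1.96 and 2.34 in Cow 2, and 1.57, 1.75 and 2.16 in Cow 4. Cow 1 did not overlap with Cow 3, while 1 library of Cow 3 reached into the ranges of Cow 2 and Cow 4. Cow 3 lay below Cow 1 by 0.94, below Cow 2 by 0.77 and below Cow 4 by 0.53 (exact permutation tests, adjusted p = 0.0139, 0.0120 and 0.0139). Cow 4 lay 0.41 below Cow 1, with an adjusted p of 0.0350 in the exact test, which rose to at most 0.0633 when 1 library was left out.

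miR-30e-5p moved against miR-30a-5p in Cow 3 as miR-30d did. The log2 ratio of miR-30a-5p to miR-30e-5p was 4.48 ± 0.12 in Cow 3 (SD, n = 6), beside 3.87 ± 0.23 over the 6 libraries of Cow 1 and 3.99 ± 0.17 and 4.12 ± 0.21 over the 8 libraries each of Cow 2 and Cow 4. Cow 3 did not overlap with Cow 1 or Cow 2 and passed the exact test against each of the other cows (adjusted p = 0.0139, 0.0120 and 0.0176).

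Ratios with miR-30c, a member that did not pass the F test by itself, gave 5 calls, all against Cow 1. The log2 ratio of miR-30c to miR-30f was -1.17 ± 0.17 in Cow 1 (SD, n = 6). In Cow 2, Cow 3 and Cow 4 it was -1.68 ± 0.21, -1.95 ± 0.27 and -1.83 ± 0.27 (8, 6 and 8 libraries). Cow 1 stood above each of them (exact permutation tests, adjusted p = 0.0139 in each of the 3). miR-30f itself was 0.67 and 0.58 higher in Cow 3 and Cow 4 than in Cow 1, as given above, and the ratio of miR-30c to miR-30d gave 0 calls. miR-30c was also higher relative to miR-30a-5p in Cow 1 than in Cow 2, as the log2 ratio of miR-30a-5p to miR-30c was 3.87 against 4.59 without overlap (adjusted p = 0.00999 in the exact test). Relative to miR-30e-5p, miR-30c was 0.60 lower in Cow 2 than in Cow 1 (adjusted p = 0.0139 in the exact test). miR-30e-5p relative to miR-30f was 0.83 lower in Cow 3 and 0.50 lower in Cow 4 than in Cow 2 (adjusted p = 0.0140 and 0.0175 in the exact test).

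Split by session, the 18 called differences are a description only, since they were called on the same libraries pooled. The cows did not overlap in 12 of them in the morning and in 14 in the evening. With the mean of both sessions as 1 value per cow and day, 17 of the 18 did not overlap. The share over the ratios of all miRNAs was not counted for these splits, so the counts are not read as a property of the family. Within 1 session the exact test cannot go below 0.1 for 3 against 3 libraries or 0.0286 for the larger groups, and none passed the adjustment there.

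Morning and evening milkings were the main comparison of the study, which asked whether the time of day changes the cargo. No member passed the test. Evening minus morning, with cow in the fit, was -0.02 for miR-30a-5p (standard error 0.09), -0.06 for miR-30b-5p (0.24), -0.01 for miR-30c (0.13), -0.02 for miR-30d (0.07), 0.02 for miR-30e-5p (0.10) and -0.07 for miR-30f (0.08) on the log2 scale. The limma adjusted p was 0.996 for each. Limma called 0 of 6 members and 0% of the 132 miRNAs, of which 2 had an unadjusted p below 0.05 and neither was a member. Limma-voom on the recovered reads called 0 as well, with 1 below 0.05 unadjusted. The median size of the difference was 0.02 over the members and 0.07 over all miRNAs.

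Among the 14 day pairs of libraries, signs were mixed. The evening value was the higher in 8 pairs for miR-30a-5p, miR-30c, miR-30d and miR-30e-5p, in 7 for miR-30b-5p and in 6 for miR-30f. The SD of the paired difference was 0.19 for miR-30d, 0.20 for miR-30f and 0.27 for miR-30a-5p, and it reached 0.32 for miR-30e-5p, 0.45 for miR-30c and 0.76 for miR-30b-5p. The ratio of miR-30a-5p to miR-30d differed between some of the cows, as given above. From morning to evening this ratio changed by 0.00 ± 0.20 on the log2 scale (SD, n = 14 pairs). It was higher in the evening in 7 pairs. Whether the session difference depended on the cow was tested as an interaction. Limma called 0 of 6 members (adjusted p = 0.969 for each) and 0% of the 132, with 1 miRNA below 0.05 unadjusted, which was no member, and limma-voom called 0 with 2 below 0.05.

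**Figure D4:**
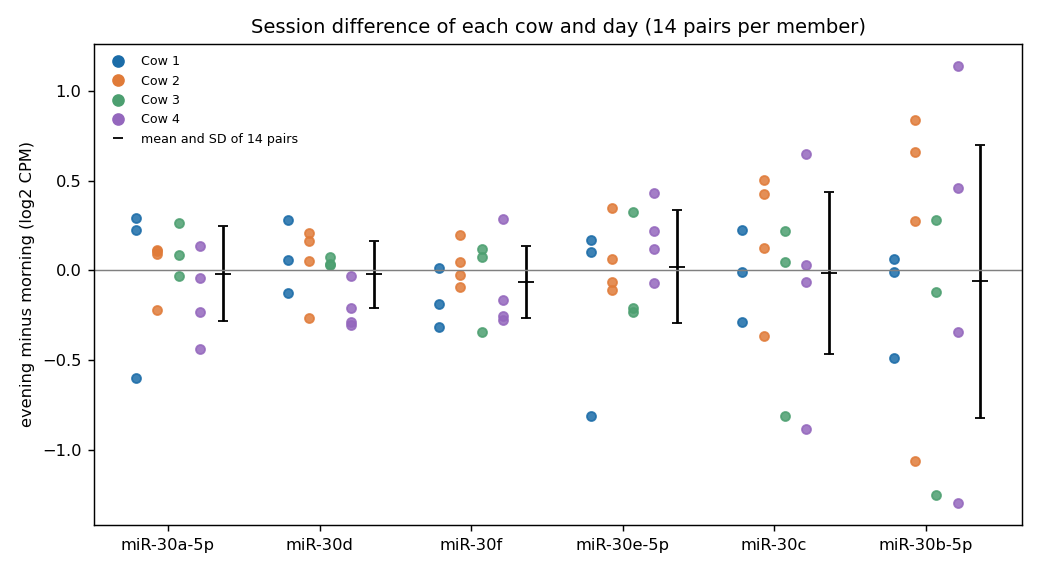
Evening minus morning level (log2 CPM) of each member in each of the 14 day pairs, coloured by cow, with the mean and SD of the 14 pairs in black. All means lie between -0.07 and 0.02, and the spread grows from miR-30d (SD 0.19) to miR-30b-5p (SD 0.76).

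The days of collection were compared with cow in the fit, since Cow 1 and Cow 3 lacked a day each. Limma called 0 of 6 members and 0% of the 132 miRNAs, while 14 miRNAs had an unadjusted p below 0.05, among them 1 member. Limma-voom called 0, with 13 below 0.05. The member was miR-30b-5p (F = 3.51, unadjusted p = 0.0283, limma adjusted p = 0.415). Relative to the mean of its cow it stood at 0.41 on day 1 and 0.16 on day 4, and at -0.36 on day 2 and -0.40 on day 3. The day 3 value includes the libraries of Cow 1 and Cow 2 with the highest SCC, described below. miR-30c lay below its cow mean in 6 of 6 libraries of day 2, by -0.28 on average, and miR-30f above it in 8 of 8 libraries of day 4, by 0.12. Neither passed the F test (adjusted p = 0.514 for miR-30c). The median F over the members was 2.08 and over all miRNAs 1.01.

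The members differed in how steady they were between milkings of 1 cow. The SD within cows was 0.15 for miR-30d, a value undercut by 3 of the 132 miRNAs, 0.18 for miR-30f (5 miRNAs) and 0.21 for miR-30a-5p (12 miRNAs). It was 0.25 for miR-30e-5p and 0.33 for miR-30c, all below the median of 0.49 over the table. miR-30b-5p was the exception, with 0.68 and 110 of 132 miRNAs steadier than it. The counting SD of the other members was at most 0.095, beside a median of 0.19 over all miRNAs. Steadiness was not compared among miRNAs of like abundance. Differences between cows held 73.3% of the variance of miR-30f, 54.3% of that of miR-30d and 48.6% of that of miR-30a-5p, but 22.3% for miR-30e-5p, 16.7% for miR-30c and 10.5% for miR-30b-5p. The median over all miRNAs was 26.8%. These percentages are not corrected for the number of cows, so they lie above 0 even for a miRNA that varies only between milkings.

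SCC ranged from 18 to 300 cells per µL and was highest on day 3 in Cow 1 and Cow 2. No member had a called slope on SCC. Per doubling of SCC, with cow in the fit, the log2 level changed by -0.25 for miR-30b-5p (standard error 0.14, limma adjusted p = 0.477), by -0.08 for miR-30e-5p (0.06), by 0.04 for miR-30d (0.04), by 0.01 for miR-30a-5p (0.05) and by less than 0.01 in size for miR-30c and miR-30f. Limma called 2.27% of the 132 miRNAs and 16 had an unadjusted p below 0.05, with 0 members in either count. Limma-voom called 4 miRNAs and 0 members.

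The negative slope of miR-30b-5p rested on Cow 1. On day 3, when the milk of Cow 1 had 297 cells per µL in the morning and 190 in the evening, miR-30b-5p stood at 7.92 and 7.99 log2 CPM (26 and 37 reads). In the other 4 libraries of the cow it stood between 9.34 and 9.82 (116 to 248 reads). The day 3 mean was thus 3.06 times below the median of those 4, and neither library overlapped with them. This contrast was picked out after its values had been seen. Its low libraries both came from day 3 of Cow 1, so raised SCC and the day of collection cannot be told apart there.

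Cow 2 did not show the same. There miR-30b-5p was 7.997 at 163 cells per µL and 8.66 at 300 cells per µL, within the 7.73 to 9.13 of its other 6 libraries. Without Cow 1 the slope was 0.02 per doubling. With each cow and day as a replicate block the slope was 0.51 (limma adjusted p = 0.863). That fit compares only the morning and evening of a day and leaves out differences between days, among them the day 3 rise in SCC. Cow 3 and Cow 4, whose milk never exceeded 53 and 58 cells per µL, had their lowest libraries at 8.11 and 7.79. Why miR-30b-5p was low in Cow 1 on day 3 was not tested. In the same 2 libraries of Cow 1, miR-30d was 14.16 and 14.44, beside 13.84 to 14.156 in the other 4. The morning value was above the highest of those by less than the counting SD of miR-30d, 0.028. For the other 4 members the day 3 libraries were neither both above nor both below the other 4 libraries. As a share of the reads on the 132 miRNAs, miR-30d took 1.49% and 1.76% in the day 3 libraries. That was within the 1.38% to 1.99% of the other libraries of Cow 1.

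**Figure D5:**
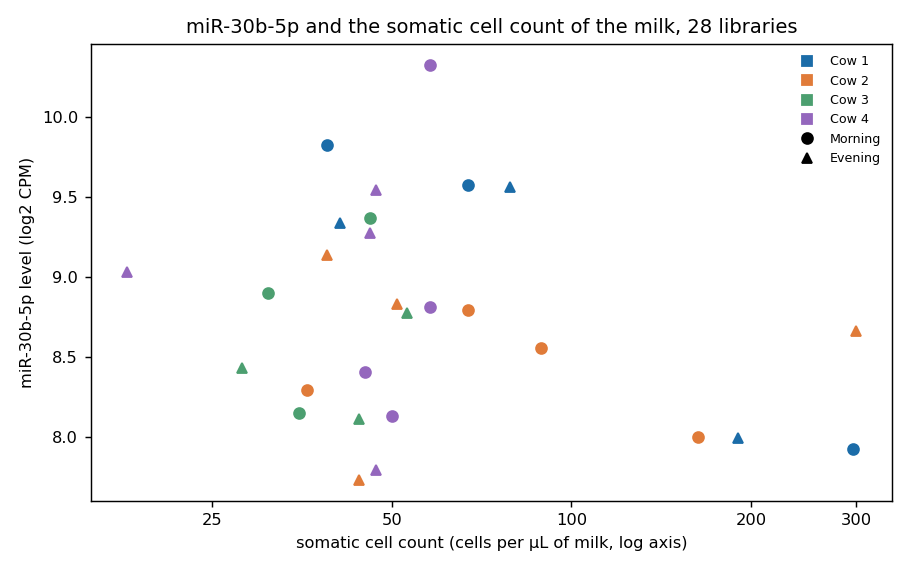
Level of miR-30b-5p (log2 CPM) against the SCC of the milk (cells per µL, log axis) in the 28 libraries, coloured by cow, with circles for morning and triangles for evening. The Cow 1 libraries of 190 and 297 cells per µL lie at 7.99 and 7.92, below the other Cow 1 libraries, while those of Cow 2 at 163 and 300 cells per µL lie within the range of their cow.

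How alike the members ran was measured by the SD of their log2 ratio over the 28 libraries, where a small SD means that 2 miRNAs kept their balance. The libraries share cow, depth and scaling, so these values are a description. The 15 pairs within the family had SDs of 0.28 to 0.76, with a median of 0.46, beside a median of 0.83 over the 8646 pairs of the table. Except for miR-30b-5p, the members had counting SDs of at most 0.095, beside a median of 0.19 over all miRNAs. Pairs of like abundance were not compared, so the gap is not read as a property of the family. The 3 smallest SDs were 0.28 for miR-30a-5p and miR-30e-5p, 0.30 for miR-30d and miR-30e-5p, and 0.32 for miR-30a-5p and miR-30d. The 5 largest were those with miR-30b-5p.

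Neighbouring genes did not give the closest pairs. The SD was 0.35 for miR-30a-5p with miR-30f, rank 4 among the 15 pairs, 0.48 for miR-30c with miR-30e-5p, which share NFYC, and 0.70 for miR-30b-5p with miR-30d. miR-30b-5p had the fewest reads of the family, with the counting SD of 0.19 given above.

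Outside the family, the closest miRNA was miR-99a-5p for miR-30a-5p (0.24), followed by miR-200b (0.29) and miR-186 (0.31). For miR-30d it was miR-191 (0.24), followed by miR-429 (0.28) and miR-21-5p (0.29). For miR-30e-5p it was miR-21-5p (0.21), followed by miR-200a (0.28) and miR-27b (0.31). Of these, miR-200b, miR-429 and miR-200a belong to the epithelial list, and miR-99a-5p, the closest to miR-30a-5p, belongs to the stromal list.

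miR-125b was the closest to both miR-30f (0.26) and miR-30c (0.27). Next for miR-30f came miR-99a-5p (0.31), of the stromal list, and miR-10174-3p (0.31). Next for miR-30c came miR-186 (0.32) and the epithelial miR-200c (0.32). miR-30b-5p had no close companion, its nearest being miR-186 (0.53), miR-374b (0.53), and miR-29a (0.58).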

How the data were processed

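Small RNA from milk EVs was sequenced by the authors, who trimmed adapters, counted unique sequences, applied a filter on low CPM, matched them to bovine miRBase miRNAs and grouped isomiRs; the deposited table holds log2 CPM made by the authors with edgeR (version not given in the sources used here). No genome build is named. Assuming a prior count of 2, the read counts behind the values could be recovered, and all 3696 came out whole within 0.01. Because the unit is log2, limma 3.58.1 in R 4.3.3 (variance trend, Benjamini-Hochberg over the 132 miRNAs, FDR 0.05) was run on the deposited values and edgeR was not. Cows, pairs of cows, sessions, the interaction, days and the slope on log2 SCC were tested, the last 4 with cow as a covariate. Member ratios were compared by exact two-sided permutation of libraries in Python 3.11.15 (numpy 2.4.6, pandas 2.3.3, scipy 1.17.1), adjusted over 90 tests, and plots were drawn with matplotlib 3.10.9. The scripts were tested on simulated data.

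All members were named, with the 3 miRNAs outside the family of smallest SD of the log2 ratio to each, and marker lists as counts and sums. The members and lists were chosen with earlier results of these data known. Alternatives covered the variance model, scaling, prior count (0.5 and 5), a filter on a mean log2 of at least 7, limma-voom, covariates, pair means, single sessions, and omission of cows or libraries. Scaling by read totals was added after seeing the data. Labels pair the morning and evening library of each cow and day. The residuals of such pairs correlated at 0.0774 on average, with 6 of 14 pairs above 0.1, beside -0.203 for libraries of a cow from different days, and a fit with a replicate block was therefore run as an alternative.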

Additional observations from a re-analysis of the deposited data

Results flagged for a closer look

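miR-30c in Cow 4 on the morning of day 1 reached 11.56 log2 CPM (636 reads), far above the other 7 libraries of the cow, which lay between 10.11 and 10.75. The gap made up 0.554 of the range of the cow. This was the 1 library that stood out among 28 groups of a cow and a measure (the 6 members and the family's share of reads), and chance gives about 1 in 20. In the same library miR-30b-5p was 10.33, its highest value. There miR-30a-5p (15.25), miR-30d (14.46) and miR-30f (12.80) also had their highest values of Cow 4, and the family had its highest share of reads (9.19%). Only miR-30e-5p, at 10.76, lay within the 10.70 to 11.14 of its cow.

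The session difference of miR-30d had opposite signs in 2 cows. Evening minus morning averaged 0.047 on the log2 scale in Cow 3, with all 3 pairs up, and -0.21 in Cow 4, with all 4 pairs down. This difference between the cows was not tested by itself, and the limma interaction over the 4 cows gave miR-30d an adjusted p of 0.969.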

How the results depend on the processing

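Of the 3 members called among cows, 1 was called with pair means (miR-30f; miR-30a-5p had a limma adjusted p of 0.0784 and miR-30d of 0.109), 1 among morning libraries and 1 among evening libraries (miR-30f each time), where the whole table fell from 62 to 30, 15 and 29 calls in smaller fits. miR-30d lost its call with quantile normalization (adjusted p = 0.0582) and read totals (0.691). With the replicate block 3 members were still called, and of the 7 calls over pairs of cows 6 remained in number; the block changed no other call of a member than that of miR-30a-5p between Cow 4 and Cow 1. These 7 became 3 with read totals, 2 in the morning and 1 in the evening. Without 1 library they ran from 6 to 11, the 11 without the evening of day 1 in Cow 3, where miR-30e-5p was called among cows (adjusted p = 0.0476). The 18 ratio calls became 0 in the morning and 0 in the evening, where the test is too small to pass, and ran from 17 to 23 without 1 library. Relative to the deposited scaling, the median of all miRNAs moved by up to 0.20 with medians set equal, 0.11 with quantile normalization and 0.26 with read totals. For sessions, the interaction, days and SCC 0 members were called under every alternative run. Over all miRNAs days gave 0 to 4 calls (4 without Cow 4) and SCC 0 to 6, with 0 under the replicate block.

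Some uncalled differences changed sign, most of them near 0. For evening minus morning, equal medians gave 0.0236 for miR-30a-5p, 0.0278 for miR-30c and 0.0193 for miR-30d, and quantile normalization 0.0488 for miR-30a-5p. Without Cow 3, miR-30b-5p was at 0.0220 and miR-30c at 0.0311. Without Cow 4, miR-30a-5p was at 0.0322, miR-30c at 0.0068, miR-30d at 0.0512 and miR-30e-5p at -0.0423. Leaving out 1 library gave -0.0642 to 0.0076 for miR-30a-5p, -0.16 to 0.057 for miR-30b-5p, -0.0647 to 0.0617 for miR-30c and -0.0307 to 0.065 for miR-30e-5p. For the slope on SCC, quantile normalization gave -0.0032 for miR-30a-5p, -0.0376 for miR-30d and -0.0382 for miR-30f, limma-voom -0.00198 for miR-30c, and read totals -0.0638 for miR-30a-5p, -0.0734 for miR-30c, -0.0346 for miR-30d and -0.075 for miR-30f. The replicate block gave 0.51 for miR-30b-5p, which was at -0.25 without it, the session covariate -0.00148 for miR-30f, and the fit without cow -0.0756 for miR-30a-5p, -0.0129 for miR-30c and -0.15 for miR-30f. Without milk above 200 cells per µL miR-30f was at -0.0372. Morning libraries gave -0.0206 for miR-30a-5p, and evening libraries -0.0777 for miR-30c, 0.00167 for miR-30e-5p and -0.0355 for miR-30f. Without Cow 1 miR-30b-5p was at 0.0156, without Cow 3 miR-30c at -0.0138, and without Cow 4 miR-30a-5p at -0.0074, miR-30c at -0.0112 and miR-30f at -0.0036. Leaving out 1 library gave -0.0088 to 0.048 for miR-30a-5p, -0.0197 to 0.022 for miR-30c and -0.0199 to 0.0158 for miR-30f. The cause of these changes was not tested. Depth was lowest for miR-30b-5p, with 23 reads at the fewest, a counting SD of 0.19 and an SD within cows of 0.68. The counting SD covers counting error only, and the part of depth in these changes was not tested.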
